A study of Mus musculus with 33 samples.

Results

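Ventricular cardiomyocytes of the embryonic day 14.5 (E14.5) mouse heart were compared by the state of a cell cycle reporter, 10 reporter-positive cells against 11 reporter-negative cells, which are 21 of the 33 single cells sequenced. The members were chosen by the labels alone, which give each cell its developmental stage and its reporter group. All cells came from mice carrying mAG-hGem, a green fluorescent protein (monomeric Azami green) fused to part of human geminin. For the promoter behind the transgene, the strain, the sex and the number of animals, nothing is given in the sources used here. Single cells were freed from ventricles by enzymatic digestion, sorted by fluorescence, and kept when a PCR on their cDNA found Tnnt2 and did not find Pdgfrb. The other 12 cells, 8 positive and 4 negative, came from postnatal day 19 (P19) hearts. Cells are named here by their titles, G for reporter positive and N for reporter negative. The comparison asks how fetal cardiomyocytes in the later phases of the cell cycle differ from those outside them, and the account goes beyond the genes of mitosis.

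Geminin is made from S phase onward and is destroyed as a cell leaves mitosis, so the reporter marks cells in S, G2 and M phase. Fetal mouse cardiomyocytes still divide while they beat, and a dividing cardiomyocyte has to take apart its nuclear envelope and part of its myofibrils. After birth most of these cells stop dividing and turn from sugars to fatty acids as fuel.

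Each sample was 1 cell and no label names its animal, so each group counts as 1 sample, no test was made, and every difference below is a size. The read counts of a group's cells were added up and scaled to CPM, counts in each 1000000 of a total. A ratio is the log2 of the positive sum over the negative sum, so that 1 is a 2-fold higher level in positive cells. Its 95% interval takes in counting error alone, with each read taken as a separate count. Whether PCR copies of a molecule were removed is not given in the sources used here, and counted copies would make the interval too narrow. Beside the ratio stands the share of the 110 pairs of a positive and a negative cell in which the positive cell held the higher CPM, where 100% or 0 means that the groups did not overlap. Totals ran from 11.9 M to 60.2 M counts per positive cell (median 17.0 M) and from 7.8 M to 55.04 M per negative cell (median 27.1 M). Genes with a read numbered 7382 to 11246 (median 8703) and 5924 to 9281 (median 8104).

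The markers of the label stood where the reporter places them. Mki67, the proliferation marker Ki-67, was at 94.9 to 2160 CPM in positive cells (median 527), whereas N24, at 272 CPM, was the highest of the negative cells, whose median was 0. Ccnb1, the cyclin B1 of mitotic entry, ran from 10.8 to 1413 CPM in positive cells and reached 1.11 CPM in the highest negative cell, so its groups did not overlap. Ect2, the exchange factor of the division plane, was higher in the positive cell in 94.5% of pairs, with 3 negative cells (N10, N21 and N24) above 200 CPM. Gmnn, endogenous geminin, overlapped widely at 142.7 against 105.4 CPM of the sums (70.9% of pairs). Tnnt2, cardiac troponin T, was at 4801 against 4713 CPM and was read in every cell, but the cells had been kept for it. Markers that were not used to keep cells were also read in every cell of both groups. Among them were the myosin heavy chains Myh6 (215 against 281 CPM) and Myh7 (259 against 135 CPM) and the transcription factor Nkx2-5 (4.91 against 4.37 CPM).

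Title numbers, depth and sex-linked reads moved together across these cells. Cells titled 1 to 10 comprised 6 positive and 5 negative cells and those titled 21 to 30 comprised 4 and 6, and the labels do not say what the number means. Of the positive cells, those titled 1 to 10 held 11.9 M to 18.3 M counts and those titled 21 to 30 held 27.4 M to 60.2 M. Reads of 4 Y-linked genes summed to over 100 CPM in 5 of 6 positive and 5 of 5 negative cells of the lower titles, and in 0 of 4 positive and 2 of 6 negative cells of the higher titles. N10 held 60497 CPM of the fibroblast marker list against at most 6462 CPM in any positive cell, and N24 stood apart among negative cells for its cycle genes. Ratios within each set of titles are given beside the main results, and the part of sex in the results was not tested. With every cell thinned to the lowest total, 7.80 M counts, 18 genes still had groups without overlap, and 3114 and 3396 genes were at least 2-fold higher and lower, against 3384 and 3962 at full depth.

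Of 20728 genes in the table, 13611 had at least 10 counts over both groups and are called measured. Of these, 3384 (24.9%) were at least 2-fold higher and 3962 (29.1%) at least 2-fold lower in positive cells, and the median ratio of all measured genes was -0.12. Lower sums often rested on a few negative cells. Taking the median cell of each group (CPM + 1) in place of the sum gave 2760 higher and 894 lower genes. When each of the 21 cells was left out in turn, 1460 genes (10.7%) stayed at least 2-fold higher throughout and 1482 (10.9%) at least 2-fold lower. At least 2-fold in both sets of titles were 1188 genes higher (8.73%) and 1182 lower (8.68%). Single cells weigh much in such sums. Of 118 genes named here, 68 had a ratio that moved by over 1.5 times when 1 cell was left out, and for 60 of the 68 it moved most without a cell of the group where the gene was lower.

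Every positive cell lay above every negative cell for 18 genes (0.132% of those measured), and below every negative cell for 0 genes. Of these 18, 15 belong to the list of kinetochore and spindle genes, which holds 163 of the 13611 measured genes. That list was chosen with earlier results of these data known. These 15 were 4930547N16Rik, which is listed under a clone symbol, and Anln, Aspm, Aurka, Cdca2, Cenpe, Ckap2l, Fam64a, Fam83d, Hmmr, Kif2c, Nusap1, Prc1, Racgap1 and Sgol1. The other 3 were Ccnb1, of the cyclin list, Mxd3, a MAX-binding repressor of the MYC network, and Slc6a6, the sodium-coupled transporter that carries taurine into the cell. Mxd3 ran from 1.52 to 21.5 CPM in positive cells with 0 counts in 11 negative cells, at least 10.28 on the log2 scale above a floor of 3 counts. Leaving out N24 raised the number of such genes from 18 to 57, and leaving out G2 raised it to 30.

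Promoters of these genes are shown because many genes of late cycle phases carry CCAAT boxes, which the factor NF-Y binds, and a cell cycle homology region, which the MuvB complexes bind. For the latter the letters TTTGAA were searched. Each sequence holds the 250 bases before the RefSeq start site on GRCm38.p6, written 5′ to 3′ on the gene's strand, with the matches of either motif on either strand in capitals (CCAAT reads as ATTGG on the other strand, and TTTGAA as TTCAAA). Ccnb1 and Hmmr stand for the genes without overlap, and Arl6ip1, Hmgb2 and Ccdc34 are the first genes outside the cycle lists, by cell pairs, that have an entry. Maged2 and Timp2 lead the genes that were lower.
Ccnb1 (chr13:100786487-100786736, minus strand): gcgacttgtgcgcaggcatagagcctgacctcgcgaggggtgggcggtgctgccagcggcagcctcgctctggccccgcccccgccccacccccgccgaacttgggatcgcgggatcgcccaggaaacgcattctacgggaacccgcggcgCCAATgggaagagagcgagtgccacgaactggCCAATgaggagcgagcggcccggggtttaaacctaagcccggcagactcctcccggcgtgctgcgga
Hmmr (chr11:40733438-40733687, minus strand): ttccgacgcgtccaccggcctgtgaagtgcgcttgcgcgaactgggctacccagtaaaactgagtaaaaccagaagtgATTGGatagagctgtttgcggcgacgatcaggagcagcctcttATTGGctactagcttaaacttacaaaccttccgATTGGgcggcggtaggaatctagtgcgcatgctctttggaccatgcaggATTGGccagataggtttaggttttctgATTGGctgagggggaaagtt
Arl6ip1 (chr7:118129626-118129875, minus strand): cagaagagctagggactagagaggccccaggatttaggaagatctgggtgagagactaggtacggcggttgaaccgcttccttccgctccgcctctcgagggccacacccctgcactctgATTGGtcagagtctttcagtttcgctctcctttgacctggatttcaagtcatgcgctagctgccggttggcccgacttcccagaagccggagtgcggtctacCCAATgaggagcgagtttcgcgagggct
Hmgb2 (chr8:57511593-57511842, plus strand): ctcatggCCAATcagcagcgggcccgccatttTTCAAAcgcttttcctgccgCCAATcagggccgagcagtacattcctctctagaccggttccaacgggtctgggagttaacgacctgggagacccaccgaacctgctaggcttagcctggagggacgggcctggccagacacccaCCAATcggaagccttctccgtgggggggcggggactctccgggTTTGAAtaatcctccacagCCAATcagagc
Ccdc34 (chr2:110017567-110017816, plus strand): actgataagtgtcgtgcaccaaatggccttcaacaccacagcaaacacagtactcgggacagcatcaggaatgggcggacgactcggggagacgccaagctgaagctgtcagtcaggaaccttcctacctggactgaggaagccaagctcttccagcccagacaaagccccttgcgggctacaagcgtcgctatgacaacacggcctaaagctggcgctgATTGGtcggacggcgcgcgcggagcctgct
Maged2 (chrX:150814346-150814595, minus strand): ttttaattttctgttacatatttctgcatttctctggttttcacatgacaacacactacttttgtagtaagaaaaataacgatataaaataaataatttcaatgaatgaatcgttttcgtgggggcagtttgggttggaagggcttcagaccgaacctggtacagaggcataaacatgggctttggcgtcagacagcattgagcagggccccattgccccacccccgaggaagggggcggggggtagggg
Timp2 (chr11:118355412-118355661, minus strand): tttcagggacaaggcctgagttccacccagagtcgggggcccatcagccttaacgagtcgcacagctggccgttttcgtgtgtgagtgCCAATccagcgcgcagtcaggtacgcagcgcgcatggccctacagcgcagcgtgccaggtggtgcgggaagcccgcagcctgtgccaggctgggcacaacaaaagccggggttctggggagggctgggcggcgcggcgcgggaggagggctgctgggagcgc

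The Hmmr promoter held 5 CCAAT boxes, that of Hmgb2 4, those of Ccnb1 and Arl6ip1 2 each, those of Ccdc34 and Timp2 1 each and that of Maged2 0. Hmgb2 also held 2 copies of TTTGAA, and no 2 matches in these promoters overlapped. Of the 18 genes without overlap 13 had an entry, and 9 of the 13 held CCAAT on either strand within the window. Among the 12 leading higher genes outside the cycle lists, described next, 6 of 8 with an entry held it, against 1 of 10 among the 12 leading lower genes. Over the promoters of all 27025 genes in the table the share was 34.5%, and for TTTGAA it was 16.3%. TTTGAA was found for 3 of the 13, 3 of the 8 and 1 of the 10.

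Outside the lists of cycle, repair, centrosome and sex-linked genes, 12 genes were named in each direction by the share of cell pairs (the plot of the first 6 in each direction shows every cell). The higher genes were Slc6a6, Arl6ip1, Hmgb2, Ccdc34, Ccdc99, Trim59, H2afv, G2e3, Reep4, Ing1, Nde1 and Nup37, with the positive cell above in 92.7% to 100% of pairs. All 12 stayed at least 2-fold higher whichever cell was left out (10.7% of all measured genes did), and 11 were so within both sets of titles (8.73%). These counts follow in large part from the choice by 2-fold sums and cell pairs in the same cells. Some of the 12 genes serve division although no cycle list held them. Ccdc99 (Spindly) brings dynein to kinetochores, Nde1 is a dynein cofactor and Reep4 keeps endoplasmic reticulum off mitotic chromosomes.

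Slc6a6 (chr6:91684053-91759066 on GRCm38) ran from 3.19 to 224 CPM in positive cells, with a median of 84.5, and reads were found in all 10. In negative cells it was at 0 in 9 of 11 and reached 1.13 CPM in N21. The sums of 83.5 and 0.0942 CPM gave a ratio of 9.79 (9.28 to 10.36), with 11.14 among the lower and 9.38 among the higher titles. Taurine is among the most abundant free amino acids of heart muscle.

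Arl6ip1, a protein that shapes the endoplasmic reticulum, was at 112 to 1996 CPM in positive cells (median 663) and at 0 to 180 CPM in negative cells (median 69.6). N8, N10 and N23 lay above the lowest positive cell, G2, and below all other positive cells. Hmgb2, a chromatin protein that bends DNA, ran from 126 to 289 CPM in positive cells (median 232), while negative cells ran from 0.197 to 156 CPM (median 12.4). N24 was the highest of the negative cells, and no other held more than 43.6 CPM. Ccdc34 was at 261 to 1527 CPM against 0 to 378 CPM, a ratio of 2.25 (2.24 to 2.27).

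**Figure D1:**
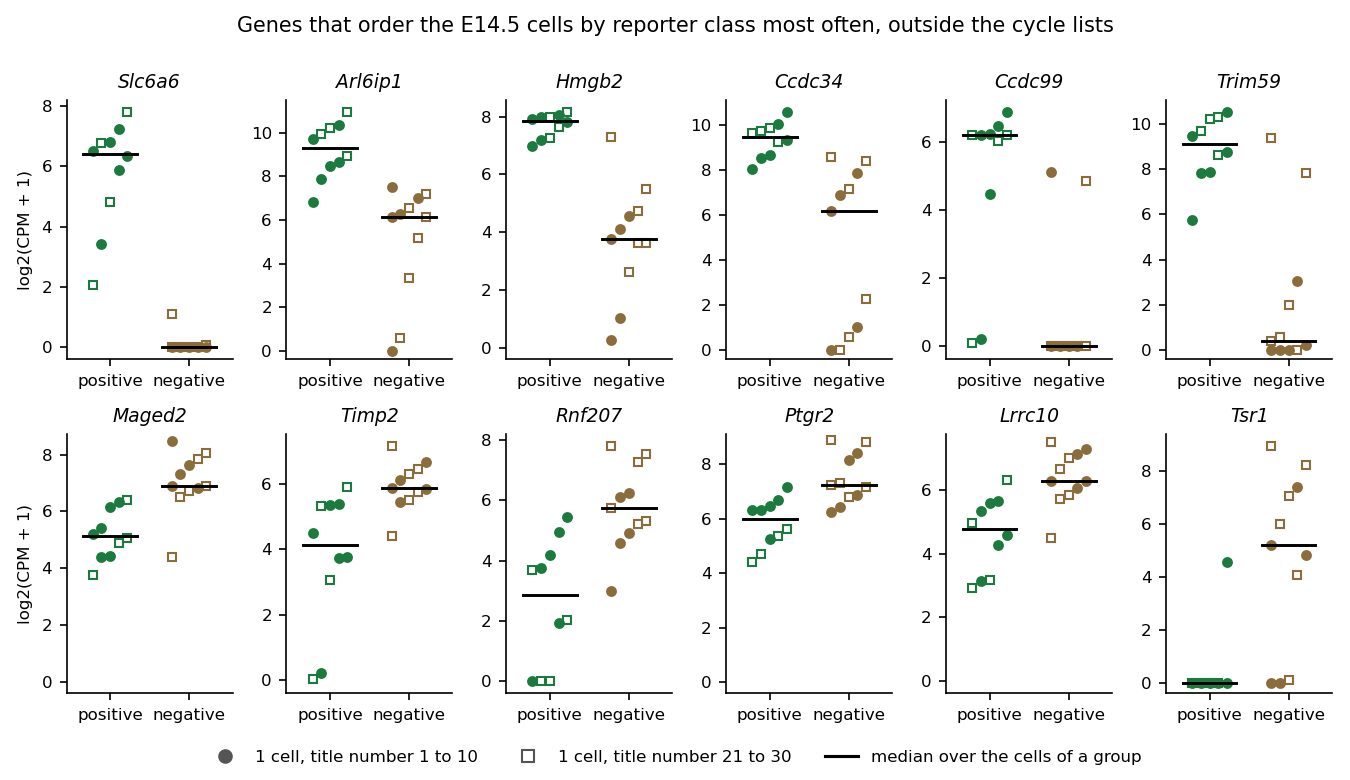
Level of 12 genes in each E14.5 cell as log2(CPM + 1), 6 higher and 6 lower in reporter-positive cells by the share of cell pairs. Circles are cells titled 1 to 10, open squares those titled 21 to 30 and bars the group medians; Slc6a6 alone shows no overlap, and Tsr1 has reads in 1 positive cell.

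Trim59, a ubiquitin ligase, had medians of 570 against 0.326 CPM, and 2 negative cells (N24 and N28) lay above 200 CPM. H2afv, a variant of histone H2A.Z, was at 342 to 1493 CPM against 76.0 to 553 CPM, read in every cell of both groups. Ing1, a reader of methylated histone H3, was at 61.5 to 330 CPM against 0 to 137 CPM. Nup37, a subunit of the Y complex of the nuclear pore, was at 14.2 to 324 CPM in positive cells, while 6 of 11 negative cells had no read. Ranked instead by the ratio left after removal of any 1 cell, the leading higher genes were Rtkn2, Slc6a6, Dleu2, Taf8, Mns1, Klhl12, Gpsm2 and G2e3. The median negative cell was at 0 for all 8, so these ratios set reads in most positive cells against few or none.

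The leading lower genes were Maged2, Timp2, Rnf207, Ptgr2, Lrrc10, Tsr1, Coq10a, Ccbl1, Rabggtb, Mtch1, Txndc15 and Fez2, with the positive cell above in 7.27% to 16.4% of pairs. Of these 10 stayed at least 2-fold lower whichever cell was left out (10.9% of all measured genes did), and 9 were so within both sets of titles (8.68%). The choice from the same cells favours these counts as well. Maged2 ran from 12.5 to 84.2 CPM in positive cells (median 34.2) and from 19.99 to 356 CPM in negative cells (median 118), a ratio of -1.99 (-2.02 to -1.96). Maged2 is an X-linked gene of the MAGE family. Timp2, an inhibitor of matrix metalloproteinases, had medians of 17.2 against 57.3 CPM.

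Some of these genes belong to heart muscle. Lrrc10, a leucine-rich repeat protein of cardiac Z-discs, was at 6.64 to 78.2 CPM in positive cells (median 26.9) and at 21.5 to 184 CPM in negative cells (median 77.5). Its ratio of -1.33 (-1.36 to -1.29) was -1.75 among the lower and -1.14 among the higher titles. Rnf207, a cardiac ubiquitin ligase linked to the repolarisation of the heart, had medians of 7.49 against 52.5 CPM and no read in 3 positive cells, while the negative cells all had reads. Coq10a, a coenzyme Q binding protein of mitochondria, had medians of 0.286 against 35.6 CPM.

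Tsr1, a factor of small ribosomal subunit assembly, had reads in 1 of 10 positive cells (G2, 22.7 CPM) and in 9 of 11 negative cells (median 35.6 CPM, highest 485 CPM in N28). Its ratio was -7.12 (-7.29 to -6.94) and -4.40 among the lower titles. No positive cell of the higher titles had a read, so the ratio there, -13.27, is a bound set by the floor of 3 counts. Ptgr2, a prostaglandin reductase, was at 20.5 to 143 CPM against 74.3 to 464 CPM, and the lowest negative cell stood above the positive median of 63.4 CPM. Rabggtb, a subunit of the enzyme that adds lipid anchors to Rab proteins, was at 334 to 1024 CPM against 380 to 3482 CPM. By the ratio left after removal of any 1 cell the leading lower genes were Reln, Limch1, Tsr1, Bex2, Hspa1a, Coq10a, Def8 and Eml2. Limch1 shows how such a sum can arise, since N10 and N21 held 366.5 and 498.7 CPM and the medians were 0.178 against 0.109 CPM.

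**Figure D2:**
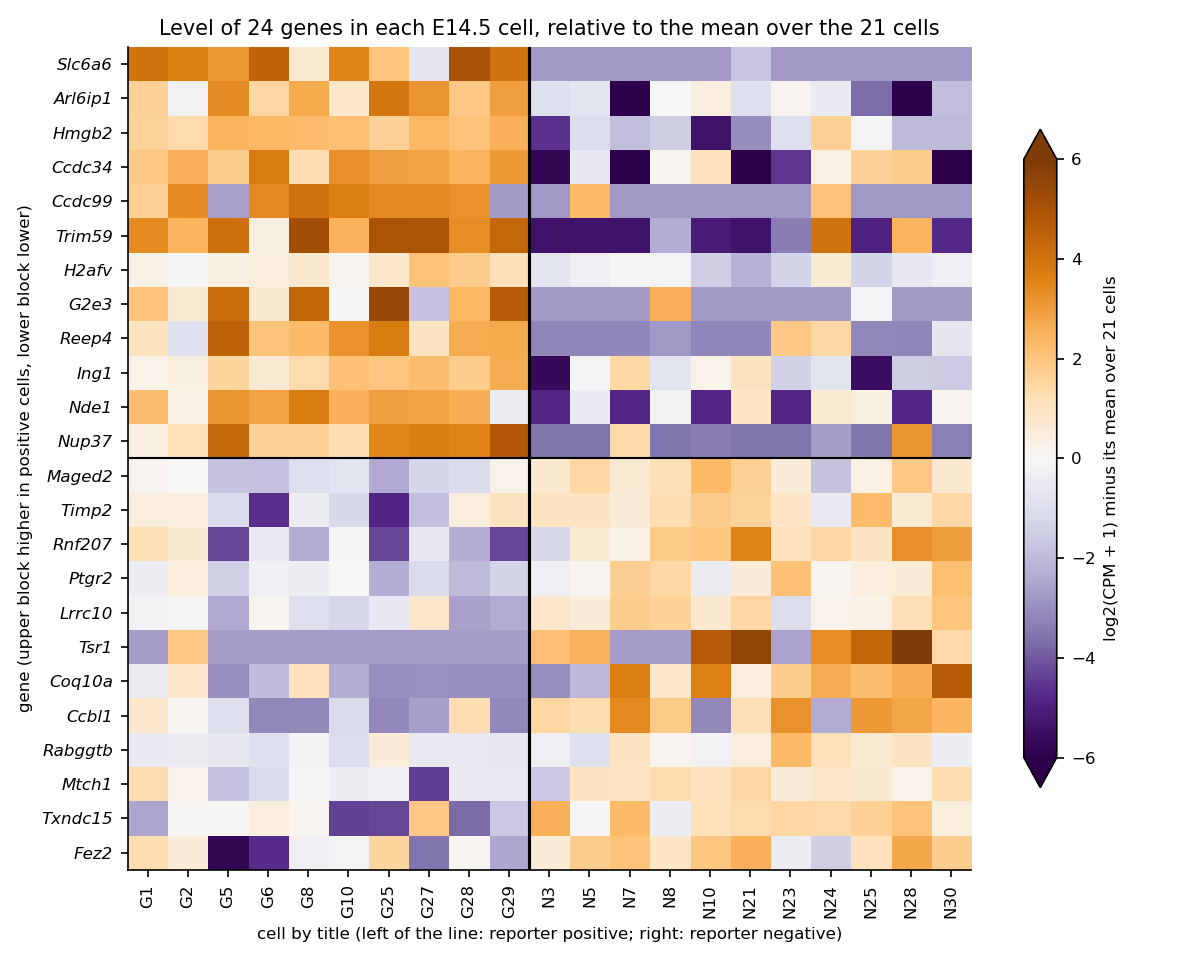
Level of the 12 higher and 12 lower genes in each of the 21 cells, as log2(CPM + 1) minus the gene's mean over the cells, orange above and purple below the mean, with cells by title and a line between the groups. Positive cells are mostly orange above the horizontal line and purple below it, with exceptions in single cells such as G2 for Tsr1 and N24 for Hmgb2 and Trim59.

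Genes of the nuclear envelope (42.1%) and its pores (44.8%) were more often at least 2-fold higher than all measured genes (24.9%). The list of the nuclear lamina and envelope had 8 of 19 measured members at least 2-fold higher and 2 lower, with a median ratio of 0.63 (0.70 among the lower and 0.74 among the higher titles). Tmpo, which encodes the lamina-associated LAP2 proteins, was its most abundant member, at 978 to 2499 CPM in positive cells (median 1354) and at 57.8 to 2320 CPM in negative cells (median 540.2). N24 and N3 held the most of it among negative cells. Tmem194 (Nemp1), a protein of the inner nuclear membrane, was read in 9 of 10 positive and 4 of 11 negative cells (45.4 against 4.40 CPM, with ratios of 3.21 and 3.49 within the sets of titles). Lmnb2, the B-type lamin B2 of the lamina, was scarce, at 0.191 to 26.6 CPM with reads in 10 of 10 positive cells and at 0 to 1.77 CPM with reads in 4 of 11 negative cells. G6 was the highest of all cells for Lmnb2 and N30 the highest of the negative cells, and the ratio of the sums, 5.21 (4.83 to 5.61), was 7.50 without N30.

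The nuclear pore list had 13 of 29 measured members at least 2-fold higher and 1 lower, with a median ratio of 0.70 (0.94 among the lower and 0.66 among the higher titles). Nup35, a scaffold nucleoporin, was at 86.4 against 10.3 CPM, with 89.4 CPM in N10, and its ratio of 3.07 was 5.49 without that cell. Seh1l, another member of the Y complex, was at 313 against 229 CPM. The summed list was higher in the positive cell in 90.9% of pairs, from 1427 CPM in G2 to 3072 CPM in G29, against 637 CPM in N28 to 1813 CPM in N24. Nuclear transport genes had 8 higher (28.6%, near the 24.9% of all measured genes) and 6 lower (21.4%, against 29.1%) of 28. Their median was 0.60 (0.63 and 0.43 within the sets of titles), and their sum was higher in the positive cell in 84.5% of pairs. Ran, the GTPase that drives transport, was at 2796 against 1419 CPM, whereas Tnpo1, the import receptor transportin, was at 23.7 against 176 CPM.

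The centrosome and centriole list had 21 of 43 members higher (48.8%, against 24.9% of all measured genes) and 3 lower. The list had a median of 0.98 (0.89 and 1.00 within the sets of titles) and 15 members that stayed 2-fold higher whichever cell was left out. Its members include the core of centriole assembly. Cenpj, which sets centriole length, was at 70.6 against 0.559 CPM and Stil, a scaffold of the new centriole, at 43.9 against 0.930 CPM, most of the latter in N24. Cetn3, a centrin, was more even at 698 against 414 CPM. Summed, the list ran from 2017 to 4103 CPM in positive and from 802 to 2190 CPM in negative cells.

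Chromatin proteins had 18 of 65 members higher (27.7%, near the share of all genes) and 8 lower (12.3%, below it), with a median of 0.43 and a sum that was higher in the positive cell in 87.3% of pairs. Asf1b, a histone chaperone of replication, was at 55.5 against 4.81 CPM, of which N24 held 35.4 CPM, and its ratio of 3.53 was 7.64 without N24. Hmgn1, a nucleosome-binding protein, was at 1460 against 829 CPM. Histone genes had 24 of 40 members higher (60%, against 24.9% of all measured genes) and a median of 1.95. By median cells, however, the list's median was 0.01. Of the 40 members 28 were under 1 CPM in the median cell of both groups. Of the variants, H2afz was at 1093 against 426 CPM and H2afx, the variant phosphorylated at DNA breaks, at 68.5 against 6.18 CPM. Hist1h1c, a linker histone, went the other way at 153 against 698 CPM. Histone genes have near-identical copies, so their counts are uncertain.

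Cytoskeleton genes had few members past 2-fold, 6 higher (9.52%) and 4 lower (6.35%) of 63, under the 24.9% and 29.1% of all measured genes. Their median of 0.12 turned to -0.07 under DESeq2 size factors, yet their summed level was higher in the positive cell in 86.4% of pairs. Tuba1b, an alpha-tubulin, was at 1136 to 11830 CPM in positive cells (median 3917) and at 364 to 4515 CPM in negative cells (median 1421), a ratio of 1.69. Tubb2c, a beta-tubulin, was at 85.8 against 8.87 CPM, and Myl12b, a regulatory light chain of nonmuscle myosin, at 55.6 against 15.3 CPM. Tubulin genes are a family of close copies, and how reads shared between them were counted is not given in the sources used here. Of the negative cells N10 held the highest sum of the list, 37904 CPM, which only G25 passed among all 21 cells.

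**Figure D3:**
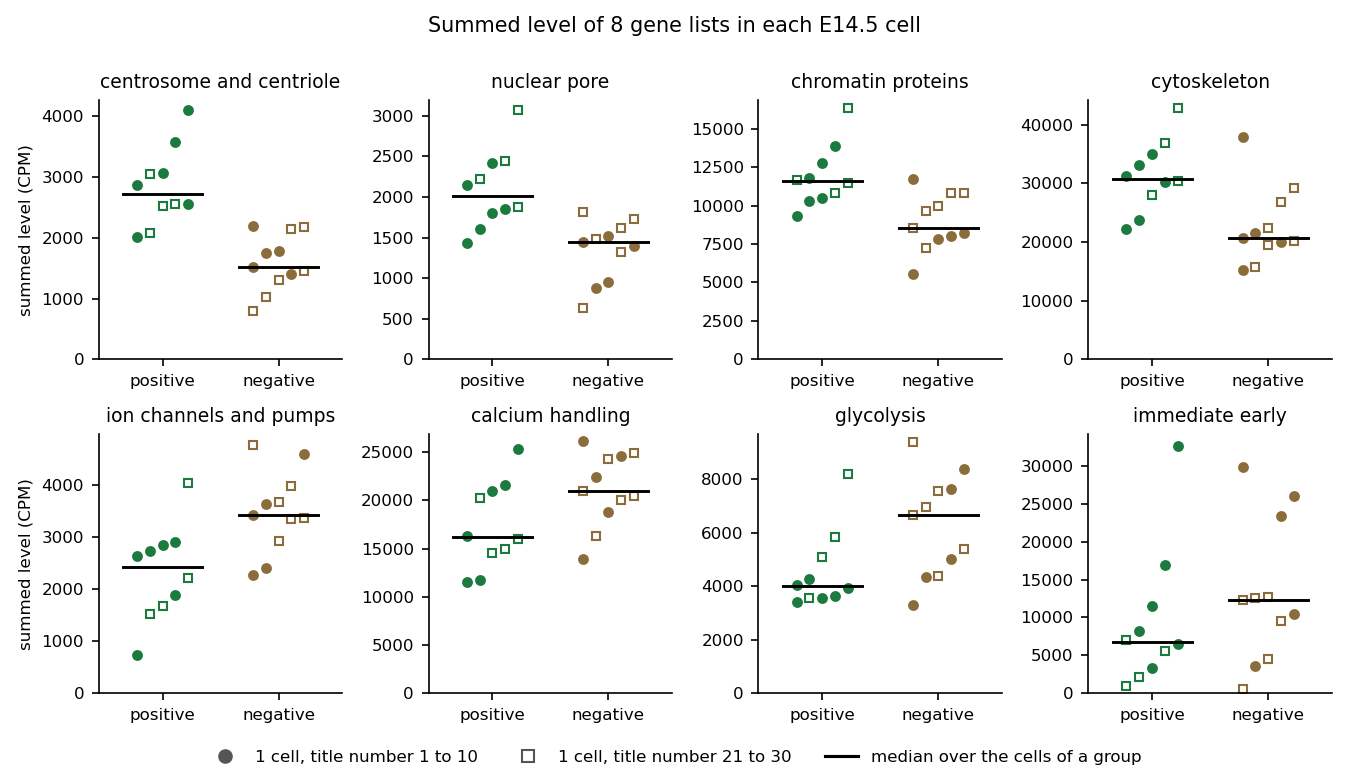
Summed level of 8 gene lists in each E14.5 cell in CPM, with circles for titles 1 to 10, open squares for titles 21 to 30 and bars for group medians. Centrosome, nuclear pore, chromatin and cytoskeleton sums sit higher in positive cells and ion channel, calcium handling and glycolysis sums lower, with overlap in every panel.

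The contractile machinery did not follow this pattern. Of 46 sarcomere genes 4 were at least 2-fold higher and 4 lower (8.70% each), under the background shares of 24.9% and 29.1%. Only 2 of the 46 were under 1 CPM in the median cell of both groups. Shares were not compared among genes of like level, here or for the lists below. The positive cell held the higher sarcomere sum in 50% of pairs. Myl2, the ventricular regulatory light chain, was at 6578 against 5151 CPM and Actc1, cardiac actin, at 9021 against 7608 CPM. Csrp3, the muscle LIM protein of the Z-disc, was lower at 313 to 763 CPM in positive cells (median 474) against 405 to 2087 CPM (median 933), in 14.5% of pairs higher in the positive cell. Its ratio of -0.90 (-0.91 to -0.89) was -1.56 and -0.57 within the sets of titles.

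Of the genes of excitation, the ion channel and pump list had 12 of 30 measured members at least 2-fold lower and 5 higher. These were 40% and 16.7%, against 29.1% and 24.9% of all measured genes. The list had a median of -0.67 (-0.34 and -0.82 within the sets of titles), and a summed level that was higher in the positive cell in 15.5% of pairs. By median cells the list's median was 0.00, with 13 of the 30 members under 1 CPM in the median cell of both groups. Gja1, the main gap junction protein of ventricular muscle, was at 790 against 911 CPM.

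Of 30 calcium handling genes 7 were lower (23.3%) and 3 higher (10%), both under the shares of all measured genes, with a median of -0.25. Ryr2, the calcium release channel of the sarcoplasmic reticulum, was at 52.6 to 2486 CPM in positive cells (median 516) and at 106 to 3827 CPM in negative cells (median 1066), a ratio of -1.02 (-1.03 to -1.01) that was -0.58 among the lower and -1.29 among the higher titles. The groups overlapped, with the positive cell higher in 19.1% of pairs. Casq1, a calcium-storing calsequestrin, was at 12.4 against 155 CPM, and Pln, the brake on the calcium pump, at 2484 against 3881 CPM. Junction and adhesion genes had 3 members higher (7.69%) and 6 lower (15.4%) of 39, also under the shares of all measured genes.

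**Figure D4:**
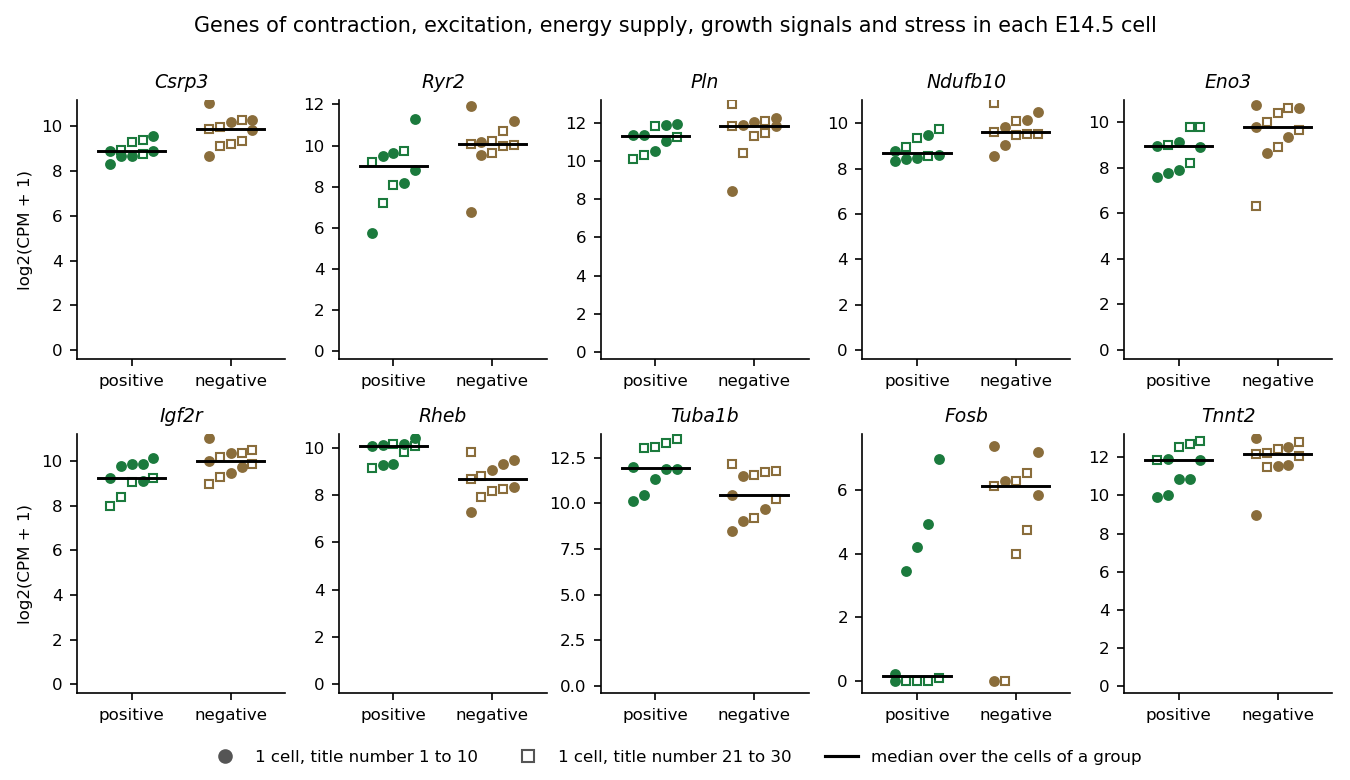
Level of 10 genes of contraction, excitation, energy supply, growth signalling and stress in each E14.5 cell as log2(CPM + 1), with circles for titles 1 to 10, open squares for titles 21 to 30 and bars for group medians. Csrp3, Ryr2, Ndufb10, Eno3 and Igf2r sit lower and Rheb and Tuba1b higher in positive cells with overlap, and Tnnt2 is shown for scale.

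Cardiac transcription factors gave 8 higher and 10 lower members of 39, below or near the background shares, and a median of -0.25. Gata6 was at 344 against 719 CPM, Hopx, a homeodomain-only protein, at 1026 against 1221 CPM, and Tbx5 at 6.18 against 29.8 CPM. The lists of the ventricular wall's layers are short. Trabecular genes, of the inner ridges, had 7 higher (58.3%, against 24.9% of all measured genes) and 2 lower of 12 and a median of 1.70, but 0.06 by median cells. Nppa, the atrial natriuretic peptide made in trabeculae of the fetal ventricle, was read in 5 positive cells, highest in G1 and G2 at 146.6 and 148.6 CPM, and in 2 negative cells at no more than 2.36 CPM. Compact layer genes had 3 higher (30%, near the share of all genes) and 1 lower of 10 and a median of 0.71 (0.81 and 0.92 within the sets of titles). Hey2, the Notch effector of the compact layer, had medians of 312 against 124 CPM, and Nrp1, a coreceptor of semaphorins and VEGF, medians of 741 against 394 CPM.

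Few genes of energy metabolism were past 2-fold, with shares in each list under the 24.9% and 29.1% of all measured genes. Of 77 oxidative phosphorylation genes 1 was higher and 1 lower, with a median of 0.09 that was -0.58 among the lower and 0.29 among the higher titles and -0.10 under DESeq2 size factors. Ndufb10, a subunit of complex I, stood out by cell pairs with 11.8%, at 323 to 865 CPM (median 414) against 375 to 1900 CPM (median 782). Fatty acid oxidation genes had 2 higher (6.06%) and 4 lower (12.1%) of 33. Their median was -0.53, against -0.12 for all measured genes. Within the sets of titles it was -0.31 and -0.58, against 0.09 and -0.22. Cpt1a, the carnitine transferase that admits fatty acids to mitochondria, was at 12.7 against 32.4 CPM, and Acadl, a dehydrogenase of the pathway, at 3337 against 2061 CPM. TCA cycle genes had 0 higher and 2 lower of 28.

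Glycolysis genes had 2 higher (6.67%) and 6 lower (20%) of 30, both under the 24.9% and 29.1% of all measured genes. Their median was -0.24 (-0.46 and -0.25 within the sets of titles), and their sum was higher in the positive cell in 22.7% of pairs. Positive cells ran from 3424 CPM in G5 to 8190 CPM in G25 (median 3993) and negative cells from 3288 CPM in N3 to 9361 CPM in N30 (median 6652). Eno3, the muscle enolase, was at 192 to 889 CPM (median 489) against 79.5 to 1706 CPM (median 867). Pfkfb3, which sets the level of a glycolysis activator, was at 22.9 against 166 CPM through N21 and N23 at 577.2 and 757.0 CPM, and its ratio was 1.91 among the lower titles and -4.17 among the higher.

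Protein synthesis and turnover were near even. Ribosomal protein genes had 2 higher and 4 lower of 76 with a median of -0.05, which was -0.78 among the lower and 0.21 among the higher titles, so the sets of titles differed in sign. Translation factors had 0 higher and 3 lower of 43, proteasome genes 1 and 2 of 45, and mitochondrial ribosome genes 2 and 6 of 76. In these lists, ribosomal proteins included, at most 2.63% of members were higher and 7.89% lower, under the 24.9% and 29.1% of all measured genes. Ribosome assembly genes had 4 higher and 13 lower of 49 (26.5%, near the 29.1% of all measured genes), Tsr1 among them, and a median of -0.32. Splicing genes had 6 higher (10.2%) and 4 lower (6.78%) of 59, also under the shares of all measured genes. Their median was 0.28, and their sum was higher in the positive cell in 78.2% of pairs.

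**Figure D5:**
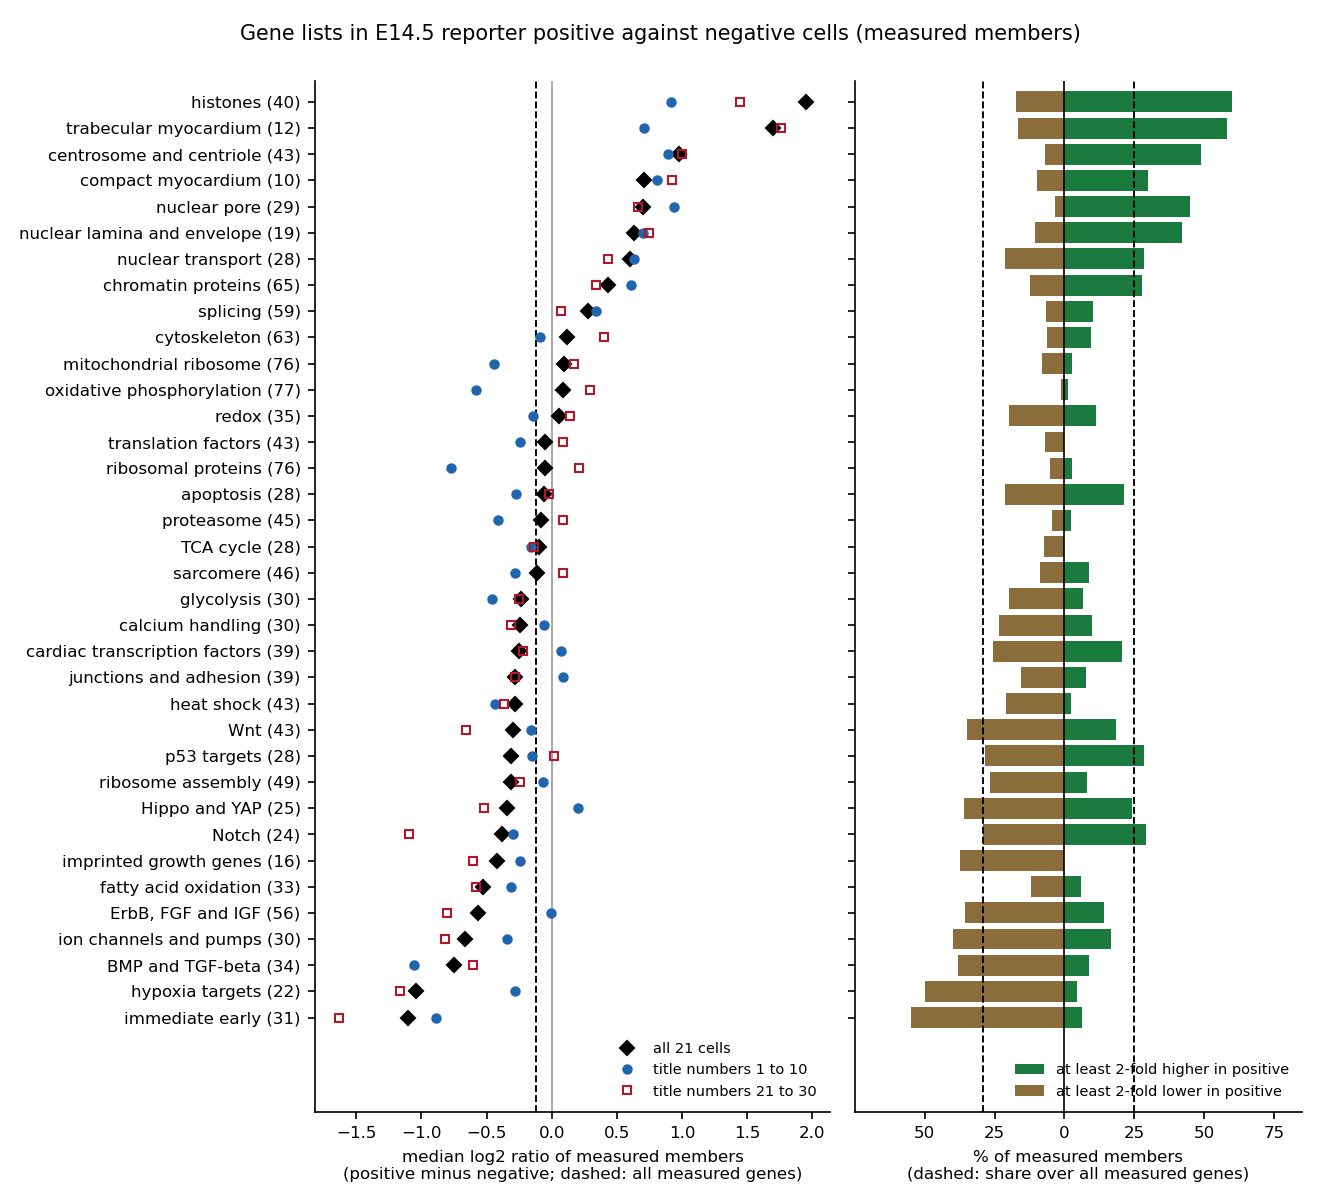
Left, median log2 ratio of the measured members (number in brackets) of 36 gene lists for all 21 cells and within each set of titles, beside the dashed median of all measured genes; right, the share of members at least 2-fold higher or lower, beside the dashed shares of all measured genes. Centrosome and nuclear pore genes lie above and immediate early genes below the reference in both sets of titles, and sarcomere, TCA cycle and ribosomal protein genes have few members past 2-fold.

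Signalling lists differed in their shares. BMP and TGF-beta genes had 3 higher and 13 lower of 34 (38.2%, against 29.1% of all measured genes) and a median of -0.75, which came to -0.22 without N10 and N24. The summed list was higher in the positive cell in 54.5% of pairs. Of the 34 members 13 were under 1 CPM in the median cell of both groups. N10 held the highest sum of this list, at 8808 CPM, beside its fibroblast markers, whose part in the result was not tested. Tgfbr2, a TGF-beta receptor, had reads in 1 of 10 positive cells (G10, 20.1 CPM) and in 8 of 11 negative cells (median 1.67 CPM, highest 120 CPM in N10). Nog, the BMP antagonist noggin, was at 0.955 against 99.4 CPM, of which N21 and N5 held 890.1 and 244.3 CPM.

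Of 56 ErbB, FGF and IGF pathway genes 20 were lower (35.7%, against 29.1% of all measured genes) and 8 higher, with a median of -0.57 that was -0.01 among the lower titles and -0.80 among the higher. The summed list was higher in the positive cell in 30.9% of pairs. For the median member the share of pairs was 50.9%, against 53.6% over all measured genes. Of the 56 members 13 were under 1 CPM in the median cell of both groups. Igf2r, which clears the growth factor IGF2, was at 250 to 1114 CPM in positive cells (median 598) against 498 to 2094 CPM (median 1007), a ratio of -1.03 (-1.04 to -1.02). The positive cell was higher in 21.8% of pairs. Rheb, the GTPase that activates mTORC1, went the other way, at 564 to 1365 CPM (median 1082) against 153 to 899 CPM (median 409), higher in 91.8% of pairs, with ratios of 0.85 and 1.24 within the sets of titles. Spry1, a feedback inhibitor of growth factor receptors, was at 3.52 against 42.2 CPM and Fgf1 at 2.92 against 25.8 CPM.

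Wnt genes had 8 higher (18.6%) and 15 lower (34.9%) of 43, against 24.9% and 29.1% of all measured genes. Hippo and YAP genes had 6 higher (24%) and 9 lower (36%) of 25, and Notch genes 7 and 7 of 24 (29.2% each). Amotl1, an angiomotin that binds YAP, was at 197 against 28.7 CPM with ratios of 1.32 and 3.84 within the sets of titles and 1.75 without G27. Ctgf, a classic YAP target, was at 141 against 388 CPM. Rbpj, the DNA-binding partner of Notch, was at 34.9 against 122 CPM. Among cell cycle inhibitors (5 higher and 5 lower of 19, each 26.3% and near the background shares) the members parted. Cdkn2c, which inhibits CDK4 and CDK6, and Cdkn3, a phosphatase of CDKs, were at 28.8 against 1.42 CPM and 103 against 1.68 CPM. Of the negative cells N25 held nearly all the Cdkn2c (12.2 CPM), whose ratio of 4.35 was 11.99 without it, and N5 and N7 nearly all the Cdkn3, whose ratio of 5.93 was 7.21 without N5. Cdkn1c, the imprinted inhibitor p57, was at 262 against 639 CPM with medians of 212 and 523 CPM, and its ratio of -1.29 was -0.68 without N21. Imprinted growth genes had 0 higher and 6 lower of 16 (37.5%, against 29.1% of all measured genes). Their 2 most abundant members, Grb10 and Gnas, were near even at 2510 against 2685 and 2258 against 2687 CPM.

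Of the lists of stress and cell isolation, 2 had more lower members than the 29.1% of all measured genes, immediate early genes and hypoxia targets. Immediate early genes had 17 of 31 members at least 2-fold lower (54.8%) and 2 higher, a median of -1.10 (-0.89 and -1.64 within the sets of titles, and -0.66 by median cells). Fosb was at 0 to 127 CPM in positive cells (median 0.105) and at 0 to 167.5 CPM in negative cells (median 68.8), with a ratio of -2.36 (-2.42 to -2.30) that was -4.07 without G1. All 4 positive cells of the higher titles held less than 1 CPM of it. Fos was at 1172 against 2700 CPM, but Egr1 was at 3661 against 2625 CPM. The summed list overlapped widely, from 950 CPM in G25 to 32524 CPM in G1 and from 523 CPM in N28 to 29871 CPM in N7. Isolation by enzymes induces these genes, and their part in the other results was not tested.

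Heat shock genes had 1 higher and 9 lower of 43 (20.9%, under the 29.1% of all measured genes) and a median of -0.28. Hspa1a and Hspa1b, near-identical inducible HSP70 genes that share reads, were at 6.46 against 352 CPM and 0.157 against 195 CPM. N8 and N25 held 1524.6 and 1882.8 CPM of Hspa1a, the other negative cells held at most 194.7 CPM, and the median negative cell held 1.28 CPM. Hypoxia targets had 11 of 22 members lower (50%) and 1 higher with a median of -1.04, but -0.29 among the lower titles and 0.00 by median cells. Apoptosis genes had 6 higher and 6 lower of 28 (21.4% each) and p53 targets 8 and 8 of 28 (28.6% each). Redox genes had 4 higher (11.4%) and 7 lower (20%) of 35. The shares of all measured genes were 24.9% and 29.1%.

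Markers of other cells the sort could hold reached unlike levels from list to list, and their part in the results was not tested. Fibroblast markers summed to 952 to 6462 CPM in positive cells (median 2729) and to 960 to 60497 CPM in negative cells (median 1588). The positive cell held the higher sum in 61.8% of pairs. Of the list's 17 measured members 12 were lower (70.6%, against 29.1% of all measured genes) and 0 higher. The list's median of -6.92 became 0.63 without N10 and N24. Postn, periostin, was at 45688 CPM in N10 and at most 6.9 CPM in any other cell, while Vim, vimentin, was at 1887 against 1930 CPM. Endothelial markers summed to 0 to 100 CPM in positive and 0 to 195 CPM in negative cells, with 6 list members at 0 counts in the positive and 5 in the negative sum. Macrophage markers summed to 0 to 248 and 0 to 379 CPM, with 7 and 8 members at 0, Csf1r, C1qa and Ptprc in both. Mural markers summed to 66 to 286 and 9 to 348 CPM, and epicardial markers to 1 to 672 and 0 to 752 CPM. Atrial markers summed to 59 to 1507 and 52 to 2757 CPM, mostly Myl4 and Myl7, which the fetal ventricle also expresses, while Sln and Bmp10 were at 0 in both groups.

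Positive cells differed among themselves. The kinetochore and spindle list summed to 9729 CPM in G2, to 20098 to 20890 CPM in G1, G6 and G10 and to 34803 to 46713 CPM in the other 6, whereas N24 reached 19348 CPM and the other negative cells 2381 to 6038 CPM. G2 was also the lowest positive cell for the nuclear pore, nuclear transport, chromatin and cytoskeleton lists. It was the highest for fatty acid oxidation (15974 CPM) and calcium handling (25373 CPM). G5 held the most centrosome and splicing transcripts of the positive cells and the fewest of fatty acid oxidation, glycolysis, oxidative phosphorylation and ion channels. G28 held the fewest ribosomal protein transcripts, at 20408 CPM, and the most oxidative phosphorylation transcripts, at 87495 CPM. These orders describe 10 cells and compositions that add to a fixed total.

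The same genes were read at P19 in other cells. Of the 12 leading higher genes, 11 had a P19 ratio, which was past 2-fold upward for 4 and downward for 1. Of the 12 leading lower genes 1 was past 2-fold downward and 1 upward. The share of all measured genes past 2-fold at P19 was not computed, so these counts have no background beside them. Slc6a6 was at 55.1 against 28.1 CPM there, Lrrc10 at 203 against 171 CPM and Rheb at 246 against 271 CPM. The E14.5 and P19 comparisons share no cells, and the difference between the ages was not tested.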

How the data were processed

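The deposited table holds raw counts per gene for 33 single-cell libraries, made by the authors from amplified cDNA and TruSeq libraries, per the labels' protocols. The submitters' processing notes name CASAVA 1.8.2, STAR 2.4.0j, HTSeq 0.6.1p1 and mm10. Settings, strand, multi-mapped reads and duplicates are not given in the sources used here.

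Counts of the 21 E14.5 cells were summed per group and scaled to CPM. Ratios have conditional binomial 95% intervals, a gene with 0 counts in a group is bounded by a floor of 3 counts per group, and "measured" means at least 10 counts over both groups. No test was made, since a group is 1 sample. Genes were named by size: 12 per direction by cell pairs (median of at least 20 CPM), 8 per direction by the ratio nearest 0 when each cell was left out (at least 20 CPM in the sum, reads in 3 of 4 cells), both outside the lists of cycle, repair, centrosome and sex-linked genes, 2 most abundant and 2 of largest ratio per list, and defining markers. Genes without overlap were named in full. The members and the 51 lists were chosen with earlier results of these data known. Of 1569 list symbols 24 were not found and 37 were matched by an older symbol. Positions come from GENCODE vM21 (GRCm38) and promoters from RefSeq.

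The alternatives, which were fixed with earlier results known, were means or medians over cells, TMM factors (edgeR 4.0.16), size factors (DESeq2 1.42.0), totals that omit each group's 10 most abundant genes, thinning to 7.80 M counts, other count minimums, each set of titles, and leaving out cells. Python 3.11.15, numpy 2.4.6, pandas 2.3.3, scipy 1.17.1, matplotlib 3.10.9 and R 4.3.3 were used, and the calculation was tested on simulated data.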

Additional observations from a re-analysis of the deposited data

Results flagged for a closer look

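In the group of 10 positive cells, 171 quantities were examined for a highest or lowest cell whose gap to the next cell took more than 0.466 of the range on a log2 scale, and 15 showed one. For 10 normally distributed values, chance gives such a gap in about 1 of 20 groups. That rate does not hold for genes at 0 in most cells, nor for genes named by their levels in these cells. The limit was set for 10 values, and the 11 negative cells were not examined by this rule. In 6 cases 1 cell stood above the rest: G2 for Tsr1 (22.7 CPM, against 0 in the others) and Hspa1b (3.03 CPM), G10 for Tgfbr2 (20.1 CPM, against 0 in the others), G25 for Rabggtb (1024 CPM, next 606 CPM), G29 for Eml2 (10.1 CPM) and G1 for Bex2 (1.91 CPM). In 8 genes 1 cell stood below the rest. G29 was lowest for Gmnn, geminin itself, at 31.0 CPM with the next cell at 79.9 CPM, and for the inhibitor Cdkn2c at 0.0572 CPM with the next at 5.81 CPM. G28 was lowest for the compact layer gene Hey2 at 0.765 CPM, where the next cell held 145 CPM. G5 had 0 counts of the linker histone Hist1h1c (next cell 46.5 CPM) and of the centriole gene Stil (next cell 15.96 CPM). Cdkn1c was lowest in G6 at 19.1 CPM, Cdkn3 in G2 at 1.09 CPM and Ctgf in G25 at 0.0731 CPM. The summed BMP and TGF-beta list was lowest in G28, at 690.3 CPM with the next cell at 1541 CPM.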

How the results depend on the processing

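With 1 sample per group no value here has a test, and the intervals leave out differences between cells, animals and amplifications. The numbers of genes at least 2-fold higher or lower, 3384 and 3962, were 2760 and 894 by median cells, and the numbers that stayed so without any 1 cell, 1460 and 1482, were 1766 and 562. Among titles 1 to 10 the latter counts were 2096 and 866. DESeq2 size factors moved every ratio by -0.19, and no list median of at least 1 in size changed sign under a scaling. Genes with every positive cell above every negative cell, 18 in all, were 59 without N10 and N24, 178 among titles 1 to 10 and 144 among titles 21 to 30. Genes with every positive cell below, 0 in all, were 1, 11 and 44 in the same order, and fewer cells overlap less by construction. Leaving out each cell gave 18 to 57 and 0 to 1 such genes, 3089 to 3628 higher and 3698 to 4337 lower genes, and 1212 to 1660 and 1312 to 1775 in every removal. Of ratios and list medians at least 1 in size, signs turned for the fibroblast list without N10 and N24 (0.63), for Postn without N10 (0.79; -12.43 to 0.79 over the removals of 1 cell), without N10 and N24 (0.58) and among titles 21 to 30 (1.08), for Pfkfb3 by median cells (3.83) and among titles 1 to 10 (1.91), and for Bex2 (0.10) and Limch1 (0.087) by median cells. Of those under 1 in size, 17 list medians and 7 ratios changed sign when 1 cell was left out, among them the endothelial list (-2.16 to 2.63), the macrophage list (-1.18 to 3.32), the atrial list (-1.19 to 0.38) and Myl7 (-1.19 to 0.35). Of the genes described with their values, other ratios that moved by over 1.5 times were those of Slc6a6 without N21 (9.79 to 13.58), Mki67 without N24 (4.32 to 15.98), Hmgb2 without N24 (2.68 to 3.72), Trim59 without N24 (2.70 to 4.16), Nup37 without N28 (2.89 to 6.54), Tmem194 without N21 (3.37 to 6.35), Tmpo without N24 (1.09 to 1.71), Cenpj without G27 (6.98 to 5.93), Stil without N24 (5.56 to 8.32), H2afx without N25 (3.47 to 4.17), Lrrc10 without G27 (-1.33 to -2.06), Coq10a without G8 (-4.68 to -5.68), Tsr1 without G2 (-7.12 to -13.53), Hspa1a without G1 (-5.77 to -8.07), Tgfbr2 without G10 (-4.37 to -10.73), Nog without N21 (-6.70 to -5.10), Spry1 without G28 (-3.58 to -6.11), Tbx5 without G1 (-2.27 to -3.15), Tnpo1 without G27 (-2.89 to -3.81), Casq1 without G25 (-3.65 to -4.48), Fos without G1 (-1.20 to -2.42) and Nppa without N25 (6.01 to 7.60). Without G2 for Tsr1 and without G10 for Tgfbr2, no positive cell had a read, so those ratios are bounds set by the floor of 3 counts. The cause of these moves was not tested. No paired analysis was possible because the result comes from no test and each sample is 1 cell.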

Other observations

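Among the negative cells, N21 held levels that no other E14.5 cell reached in some genes. These included Nog at 890.1 CPM and Limch1 at 498.7 CPM, together with the highest summed ion channel list (4766 CPM) and junction and adhesion list (22660 CPM) and the lowest ribosomal protein list (11089 CPM). It also held 217.1 CPM of Ect2 with 0 CPM of Mki67. N24 held the highest sums of the replication list (23560 CPM) and of the DNA repair list (5283 CPM) of all 21 cells, next to 19348 CPM of kinetochore and spindle genes. N7 was the lowest negative cell for 12 of the 42 lists that are not cell type or reporter markers, and had the second fewest genes with a read, 5984, among the negative cells. Whether these cells differ in type, phase or RNA quality was not tested.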
